A study of Mus musculus with 12 samples.

Results

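The colons of mice that received ursolic acid (UA) from before the start of dextran sulfate sodium (DSS) were compared with the colons of untreated mice by RNA sequencing, across all genes. The comparison used every library of 2 groups, 6 of the 12 libraries in the series. Con was untreated by its label and received the vehicle by gavage according to the study's methods. UA+DSS drank water with 3% w/v DSS over 5 days, and UA was given by gavage each day at 200 mg/kg from 24 h before the DSS. The methods give 7 days of UA and the study's discussion gives 9, and no label settles this. The mice were male C57BL/6, 6 weeks of age on arrival, and carried no engineered allele. Each group had 3 libraries made from pieces of colon, and where along the colon a piece was taken is not given in the sources used here. Values of the DSS group (the same DSS without UA, 3 libraries) are given below to show how large a value was in colitis. The DSS group was tested against the same 3 Con libraries, so the sets of values share their control. The remaining group, DSS+UA (3 libraries), had the same DSS and received UA at 200 mg/kg each day from 3 days after its start. The main tests were fitted over all 12 libraries, so DSS and DSS+UA also fed the spread that each test used.

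DSS is a sulfated polysaccharide that damages the colonic epithelium and lets luminal bacteria reach the mucosa. Neutrophils and monocytes then enter, the epithelium makes antimicrobial proteins, and the crypts regenerate from their stem cells. UA is a plant pentacyclic triterpenoid. The colon is not uniform along its length. The epithelium and mesenchyme of the proximal and distal colon keep different sets of homeobox (Hox) genes, and genes for bile acid uptake, mucus and gut hormones are graded along the same axis. A comparison of colon pieces can therefore reflect where the pieces were cut as well as what the animals received, and cell numbers cannot be told apart from RNA per cell in bulk tissue.

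The 6 libraries held between 15566216 and 19498383 counts (17647392 to 19498383 in Con, 15566216 to 18862254 in UA+DSS). Mitochondrially encoded transcripts took 7.84%, 9.53% and 4.46% of the counts in the Con libraries and 4.21%, 5.58% and 4.25% in the UA+DSS libraries. Con replicate 1 stood apart from the other libraries. Its Euclidean distance over log2 CPM (CPM being a gene's counts scaled to a common library total) was 134 to each of the other Con libraries, whereas Con replicates 2 and 3 lay 84.0 from each other and 89.7 to 114 from the UA+DSS libraries. On the first principal component of the 6 libraries, which held 51.8% of the variance, Con replicate 1 scored 112, Con replicates 2 and 3 scored 12.3 and 0.36, and the UA+DSS libraries scored −44.9, −46.7 and −33.3. The main counts and many of the lists and genes are therefore given with and without Con replicate 1. A single value does not mean that this library left it unmoved.

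Of 17658 genes tested, 1 gene (0.00566%) differed between UA+DSS and Con at an adjusted p below 0.05 in edgeR's quasi-likelihood test with Benjamini-Hochberg adjustment. It was Osr2, which rose. At an unadjusted p below 0.05 there were 2132 genes (12.1%), of which 857 (4.85%) were higher and 1275 (7.22%) were lower. DESeq2 called 376 of the 17485 genes to which it gave an adjusted p (2.15%), of which 178 were raised (1.02%) and 198 lowered (1.13%), and 129 when Con replicate 1 was left out. Every UA+DSS library lay above every Con library for 1698 genes (9.62%) and below every Con library for 1941 genes (11%). Without Con replicate 1 the counts were 2313 (13.1%) and 2569 (14.5%). For scale, DSS against the same Con libraries gave 4688 genes (26.5%) in the same edgeR test, 2459 raised (13.9%) and 2229 lowered (12.6%). The median absolute log2 fold change of UA+DSS against Con was 0.29.

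Osr2 encodes an odd-skipped zinc-finger transcription factor that patterns embryonic mesenchyme (GRCm38 chromosome 15, 35296098 to 35303305, plus strand). Its level was 0.207, 0.499 and 0.16 CPM in Con replicates 1 to 3 and 72.7, 135 and 45 CPM in UA+DSS replicates 1 to 3. The groups were far apart and Con replicate 1 was not unusual among its group. The log2 fold change was 8.17 with a standard error (SE) of 0.80, and the adjusted p in edgeR was 0.0218. In the DSS libraries it was 1.49, 1.1 and 0.158 CPM, so the high level was not seen there. Without Con replicate 1 the log2 fold change was 7.98 and the adjusted p in edgeR was 0.271. Over 19 alternative fits the log2 fold change stayed between 7.65 and 8.79, and the adjusted p ran from 7.99e-25 in DESeq2 to 0.271, with the call lost in 8 of them.

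**Figure D1:**
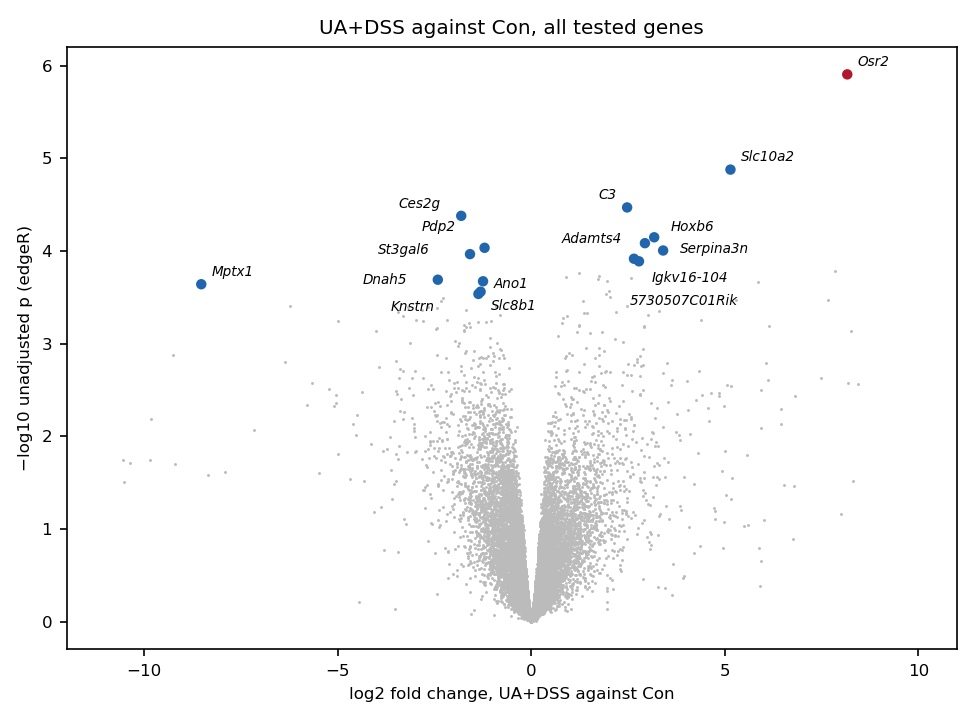
Each point is 1 of the 17658 tested genes, with the log2 fold change of UA+DSS against Con on the x axis and −log10 of the unadjusted edgeR p on the y axis. Red marks Osr2, whose adjusted p was 0.0218, and blue marks the other 15 named genes that lay wholly above or below Con with the smallest p.

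The next genes by p among those higher in every UA+DSS library were Slc10a2, C3, Hoxb6, Adamts4, Serpina3n, 5730507C01Rik and Igkv16-104. None of them passed the adjusted threshold in edgeR. Slc10a2 encodes the apical sodium-dependent bile acid transporter, which recovers bile acids from the lumen and is best known from the ileum. It was 3.26, 6.99 and 4.6 CPM in Con and 119, 308 and 99.2 CPM in UA+DSS, a log2 fold change of 5.15 (SE 0.58, adjusted p in edgeR 0.116). In the DSS libraries it was 14, 3.86 and 13.4 CPM, far below the level in UA+DSS.

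C3, the central complement component, was 38.5, 15 and 27.6 CPM in Con and 168, 86.3 and 198 CPM in UA+DSS. Its log2 fold change was 2.48 (SE 0.36, adjusted p in edgeR 0.166), against 827, 641 and 842 CPM in DSS. Serpina3n, a secreted inhibitor of serine proteases made in the acute phase response, was 10.9, 9.98 and 14.9 CPM in Con and 59.8, 70.5 and 250 CPM in UA+DSS (log2 fold change 3.41, SE 0.52, adjusted p in edgeR 0.166). The DSS libraries held more of both transcripts than any UA+DSS library. Adamts4, a secreted protease that cuts proteoglycans, showed the same order, with 0.724 to 1.55 CPM in Con, 4.44 to 13 CPM in UA+DSS, with 48.7 to 122 CPM in DSS. Igkv16-104, an immunoglobulin kappa variable segment, was 2.9 to 4.83 CPM in Con and 16.3 to 50.2 CPM in UA+DSS, and reads of such segments can be shared among near-identical copies. 5730507C01Rik, a gene without a settled function, was 0.499 to 1.4 CPM in Con and 3.35 to 8 CPM in UA+DSS.

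The 8 genes lower in every UA+DSS library with the smallest p were Ces2g, Pdp2, St3gal6, Dnah5, Ano1, Mptx1, Slc8b1 and Knstrn, and none passed the adjusted threshold in edgeR. Ces2g, a carboxylesterase of the intestine and liver, was 36.4, 23.2 and 19.4 CPM in Con and 6.16, 6.5 and 9.89 CPM in UA+DSS (log2 fold change −1.81, SE 0.27, adjusted p 0.166). Mptx1, a mucosal pentraxin of the gut epithelium, was 1503, 40.7 and 248 CPM in Con and 0.321, 1.31 and 3.14 CPM in UA+DSS, a log2 fold change of −8.52 (SE 1.22) with all Con libraries and −6.47 without Con replicate 1, which was the highest. In DSS it was 98.6, 38 and 13.5 CPM, which overlaps Con and lies above UA+DSS.

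Ano1, the calcium-activated chloride channel that marks the interstitial cells of Cajal (the pacemaker cells of the gut wall) and is also made by secretory epithelium, was 136, 123 and 138 CPM in Con and 56.5, 44.2 and 67.5 CPM in UA+DSS. Its log2 fold change was −1.24 (SE 0.23) and −1.22 without Con replicate 1, and the DSS libraries lay at 51.1 to 64.9 CPM, within the UA+DSS range. Pdp2, a phosphatase that activates the pyruvate dehydrogenase complex, was 28.6 to 35.6 CPM in Con, 11.7 to 15.9 CPM in UA+DSS, with 12.2 to 19.3 CPM in DSS. Slc8b1, the mitochondrial sodium-calcium exchanger, was 65.1 to 97 CPM in Con and 24.6 to 44.8 CPM in UA+DSS. Dnah5, a dynein heavy chain, was 2.9 to 6.42 CPM in Con and 0.875 to 1.01 CPM in UA+DSS. St3gal6, a sialyltransferase, was 132 to 236 CPM in Con and 44.2 to 71.6 CPM in UA+DSS, and Knstrn, a mitotic spindle protein, was 39.8 to 64.8 CPM in Con and 12.2 to 24.1 CPM in UA+DSS. Counting by strand is not stated, so reads of C3, Hoxb6, Adamts4, St3gal6, Ano1 and Knstrn, which overlap another annotated gene, could include reads of that gene.

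Hoxb3 to Hoxb8 and Hoxb13 differed between the groups in the direction of an axis along the colon, whereas some Hoxa and Hoxd genes did not. Genes of the Hoxb cluster from Hoxb3 to Hoxb8 are known from the caecal end, and Hoxb13 and the 5′ Hoxd genes from the rectal end. A position score was formed as the mean log2 CPM of 5 rectal genes (Hoxb13 and Hoxd10 to Hoxd13), from which the mean of Hoxb3 to Hoxb8 was subtracted, so that higher values lie toward the rectum. The score was 5.53, −3.03 and −1.83 in Con replicates 1 to 3 and −4.88, −5.70 and −4.16 in UA+DSS replicates 1 to 3. The UA+DSS libraries lay below all Con libraries, and Con replicate 1 lay at the other end of the scale. The difference of the means was −5.13 (exact two-sided permutation p = 0.1, the smallest that 3 against 3 libraries can give) and −2.48 without Con replicate 1. The score was defined with earlier results of these data known and holds no Hoxa gene, so its p is not independent support. The DSS libraries scored 3.10, 1.35 and 0.37, above every UA+DSS library.

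Hoxb6 was 3.26, 10.4 and 6.36 CPM in Con and 56.8, 91.1 and 33.2 CPM in UA+DSS, a log2 fold change of 3.18 (SE 0.48, adjusted p in edgeR 0.166) and 2.85 without Con replicate 1. Hoxb3 was 0.879 to 1.72 CPM in Con and 5.1 to 11.4 CPM in UA+DSS (log2 fold change 2.57, SE 0.46). Of the 12 tested Hox genes known from the caecal side, 7 were higher and 3 were lower in UA+DSS without overlap, and leaving out Con replicate 1 gave the same counts. Over all tested genes, 9.62% were higher and 11% lower without overlap. The 3 lower genes were Hoxa3, Hoxa5 and Hoxa7 of the Hoxa cluster, named here after their values were seen. Of 10 tested Hox genes known from the rectal side, none was higher and 3 were lower, and without Con replicate 1 there were 3 of each.

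At the rectal end, Hoxb13 was 542, 62.8 and 100 CPM in Con and 0.385, 0.0625 and 13.2 CPM in UA+DSS, a log2 fold change of −5.67 (SE 1.22, adjusted p in edgeR 0.241) and −4.14 without Con replicate 1. It was 216, 77.4 and 91.3 CPM in the DSS libraries, within the range of Con. Hoxd13 was 178 CPM in Con replicate 1, 0.222 and 0.588 CPM in Con replicates 2 and 3, and 0.128, 0.0625 and 0 CPM in UA+DSS, so its difference rested on 1 Con library. Only 3 reads of Hoxd13 were counted over the UA+DSS group, and the ratio of Con to UA+DSS was 1038 (exact 95% interval 355 to 5036, counting error only). With the spread between libraries, the log2 fold change of Hoxd13 was −9.81 (SE 4.54, adjusted p in edgeR 0.279), and −2.63 without Con replicate 1.

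Hoxd10 and Hoxd11 did not share the order of Hoxb13 once Con replicate 1 was set aside, an observation made after their values were seen. Hoxd10 was 28.7, 0.111 and 0.107 CPM in Con and 3.02, 5.75 and 0.851 CPM in UA+DSS, and Hoxd11 was 20.7, 0 and 0.0535 CPM in Con and 2.18, 2.62 and 0.744 CPM in UA+DSS. The UA+DSS libraries were thus above Con replicates 2 and 3 for both genes and below Con replicate 1. With a score from Hoxd10 to Hoxd13 alone, the groups differed by −1.14 (exact two-sided permutation p = 1). With Hoxb13 minus Hoxb6 they differed by −10.36. Tbx3, a T-box factor among the other regional transcription factors, was 7.4 to 9.36 CPM in Con and 20.7 to 45.5 CPM in UA+DSS (log2 fold change 1.94, SE 0.37). Osr2 belongs to the same list. Of its 21 tested genes, 8 had a positive and 13 a negative log2 fold change (median −0.14). Without overlap 3 were higher and none was lower, beside 9.62% and 11% of all tested genes.

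**Figure D2:**
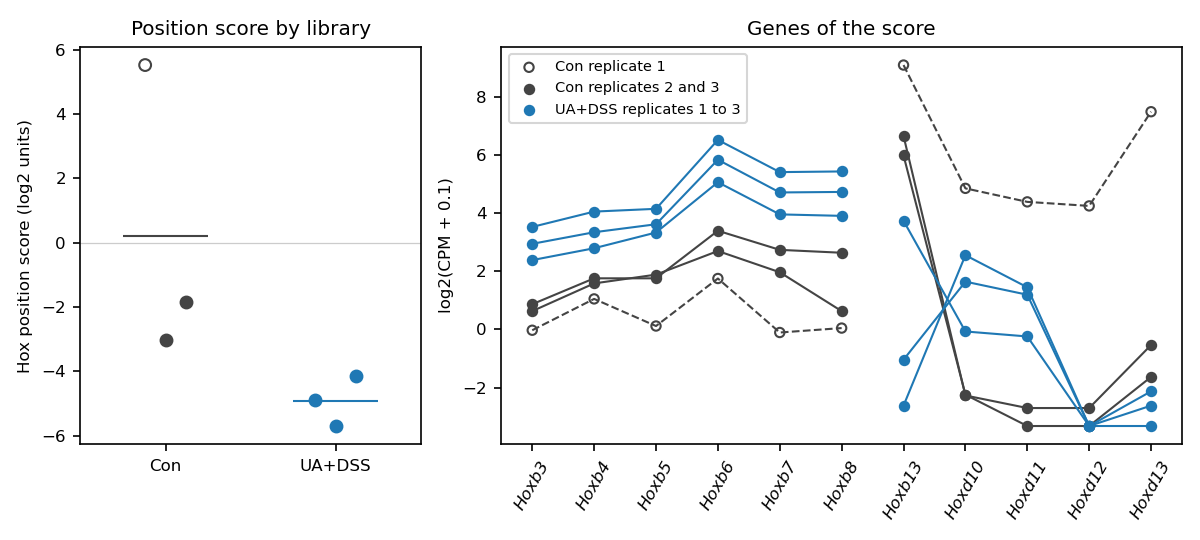
The left panel plots the Hox position score of each Con and UA+DSS library, in log2 units, with a line at the group mean. The right panel plots log2(CPM + 0.1) of the 11 genes of the score, where Con replicate 1 (open circles, dashed line) is highest for Hoxb13 and the Hoxd genes and UA+DSS (blue) is highest from Hoxb3 to Hoxb8.

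Fitting the score as a covariate compared the groups at an equal position score. No gene was then called in edgeR (0% of 17658), and 739 genes (4.19%) had an unadjusted p below 0.05. The scores of the groups overlapped in no library, so this comparison extrapolates along the score, and position and treatment cannot be told apart by the design. The call of Osr2 was lost, with a log2 fold change of 7.79 (SE 1.19, adjusted p in edgeR 0.355). C3 had a log2 fold change of 3.14 (SE 0.41, adjusted p in edgeR 0.213) and Slc10a2 one of 4.59 (adjusted p in edgeR 0.754). The lowest unadjusted p among lower genes belonged to Mier3, a transcriptional corepressor, which was 41.3, 136 and 103 CPM in Con and 76.3, 71.8 and 47.1 CPM in UA+DSS. Its log2 fold change was −1.41 at equal position score (adjusted p in edgeR 0.19) and −0.52 without that term. Ptger4, a receptor for prostaglandin E2, was 30.3, 72.8 and 77.3 CPM in Con and 44 to 56.2 CPM in UA+DSS, with −0.95 at equal position score and −0.26 without the term. Scara5, a ferritin receptor of fibroblasts, had 2.18 at equal position score and 1.13 without the term.

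The slope on the score was fitted within the 4 groups, DSS and DSS+UA among them. It was called for 224 genes in edgeR (1.27%), 92 with a positive slope (0.521%) and 132 with a negative slope (0.748%). These calls depended on each of the Con libraries. Without Con replicate 1 there was 1 gene called, and 10 and 17 genes were called without Con replicates 2 and 3. Tcf7l1, a Wnt pathway transcription factor, had a slope of 0.44 log2 units per unit of score (SE 0.03, adjusted p in edgeR 0.000255). It was 125 CPM in Con replicate 1, 9.87 and 10.3 CPM in the other Con libraries and 6.31 to 8.83 CPM in UA+DSS. Slc36a1, a proton-coupled amino acid transporter, had a slope of 0.24 (SE 0.02), with 145 CPM in Con replicate 1 and 34.2 to 43 CPM in the other 5 libraries. Armc9, a ciliary protein, was 44.9 CPM in Con replicate 1 and 3.49 to 5.99 CPM in the other 5 libraries.

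Among genes with a negative slope, Isx, an intestinal homeobox factor that restrains vitamin A uptake, was 0.362 CPM in Con replicate 1, 80.8 and 46 CPM in Con replicates 2 and 3 and 132 to 170 CPM in UA+DSS (slope −0.86, SE 0.07, adjusted p in edgeR 0.00315). Emp1, an epithelial membrane protein, was 101 CPM in Con replicate 1 and 1383 to 2088 CPM in the other 5 libraries. B4galnt1, a ganglioside-synthesizing enzyme, was 8.53 CPM in Con replicate 1 and 103 to 153 CPM in the other 5.

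Single genes show how far Con replicate 1 lay from the other Con libraries. AI854703 was 158 CPM there against 5.1 and 6.52 CPM, and Reg4, a secreted lectin of goblet and endocrine cells, was 590 CPM against 21.9 and 23.2 CPM. In the other direction, Abca12, a lipid transporter, was 0 CPM against 36.3 and 31 CPM. Sptssb, a subunit of serine palmitoyltransferase, was 0.414 CPM against 175 and 87.6 CPM, and Retnlb, the goblet cell protein RELM-beta, was 0.414 CPM against 186 and 112 CPM. In UA+DSS these 3 genes were at 56 to 121, 214 to 318 and 62.6 to 876 CPM, all above Con replicate 1. These values were chosen for their distance and are given without a test.

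No member of any inflammatory list was called in edgeR, and the lists differed in how many members lay above Con. For each list here and below, counts without overlap stand beside 9.62% of all tested genes higher and 11% lower. Without Con replicate 1 those shares were 13.1% and 14.5%. In DSS against Con, 13.9% of all tested genes were raised and 12.6% lowered. Of 21 tested neutrophil markers, 13 were higher in every UA+DSS library than in every Con library and none was lower, against 9.62% and 11% of all tested genes. Without Con replicate 1 it was 14 and none. An unadjusted p below 0.05 on the higher side was found for 7 of the 21, beside 4.85% of all tested genes. DESeq2 called 2 of the 21 raised, beside 1.02% of the genes it adjusted. Their median log2 fold change was 2.57, and 2.69 without Con replicate 1 and 2.85 at equal position score, whereas the median of all tested genes was −0.01. In DSS against the same Con libraries 19 of the 21 were raised and none was lowered. Genes were kept by counts over all 12 libraries, so a marker with almost no reads in Con could be kept through other groups. Such a marker could rise but hardly fall, so the shares of all tested genes are not a like comparison. The same limit holds for other lists with members near the detection limit in Con.

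S100a8 and S100a9 encode the 2 subunits of calprotectin, the most abundant cytosolic protein of neutrophils. S100a8 was 0.155, 0.277 and 0 CPM in Con, 2.57, 9.5 and 26.9 CPM in UA+DSS, with 221, 6821 and 317 CPM in DSS. S100a9 was 0, 0 and 0.107 CPM in Con, 4.04, 8.25 and 25 CPM in UA+DSS, with 250, 7510 and 325 CPM in DSS. Both were near the detection limit in Con, present in every UA+DSS library, and higher in every DSS library than in any UA+DSS library. S100a8 had a log2 fold change of 6.44 against Con (SE 2.10, unadjusted p 0.0051, adjusted p 0.272, both in edgeR). For S100a9, with 2 reads over the Con group, the ratio of UA+DSS to Con was 370 (exact 95% interval 102 to 3060, counting error only). With the spread between libraries, the log2 fold change of S100a9 was 8.20 (SE 3.49, adjusted p in edgeR 0.241).

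Ly6g, which names the neutrophil antibody target, went another way. It was 112 CPM in Con replicate 1, 8.26 and 11.6 CPM in the other Con libraries, 14.8, 12 and 54.5 CPM in UA+DSS, with 190 to 300 CPM in DSS. The summed level of the 21 markers was 244, 222 and 290 CPM in Con and 562, 204 and 482 CPM in UA+DSS, and most of it in both groups came from Ly6g and Cd177, a neutrophil surface protein that was 126 to 274 CPM in Con and 135 to 285 CPM in UA+DSS. Over the other 19 markers the sum was 5.02, 3.88 and 4.55 CPM in Con and 26.6, 32.9 and 94.4 CPM in UA+DSS, beside 799, 23338 and 976 CPM in DSS. The split was made after the values were seen.

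The chemokines that draw neutrophils were low in all 6 libraries. Cxcl1 was 0.828, 0.444 and 0.16 CPM in Con and 2.18, 0.375 and 3.24 CPM in UA+DSS, so that the groups overlapped. Cxcl5 was 1.71, 0.388 and 0.107 CPM in Con and 4.81, 0.375 and 10.5 CPM in UA+DSS. UA+DSS replicate 2 stayed within Con for both. No read of Cxcl2 was counted in Con, and UA+DSS held 0.834, 0.0625 and 4.25 CPM, at least 34.9-fold higher when the Con group is set at the floor of 3 reads. In DSS, Cxcl2 was 70.8, 2682 and 80.6 CPM. Of the 6 tested genes of this list, 2 were higher without overlap and none was lower, beside 9.62% and 11% of all tested genes. All 6 were raised in DSS, beside 13.9% of all tested genes. The median log2 fold change was 3.33, or 2.89 with the 2 genes absent from Con taken at the floor of 3 reads. Of 12 tested monocyte and eosinophil chemokines, 4 were higher without overlap and none was lower, beside the same 9.62% and 11%. Ccl2, the main monocyte chemokine, was 0.879 to 1.07 CPM in Con and 1.56 to 5.16 CPM in UA+DSS (log2 fold change 1.92, SE 0.56). Ccl5, a chemokine made by T cells, was 3.72 to 6.84 CPM in Con and 9.04 to 41.1 CPM in UA+DSS, which lies within the 4.86 to 51.1 CPM of DSS.

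Among 18 tested interleukins and TNF family members, 3 were higher and 1 was lower without overlap, beside 9.62% and 11% of all tested genes. Without Con replicate 1 the counts were 7 and 1, beside 13.1% and 14.5%. Il11, a stromal cytokine of the IL-6 family, was 0.517, 0.277 and 0.107 CPM in Con and 1.92, 0.812 and 4.04 CPM in UA+DSS (log2 fold change 2.89, SE 0.79). Il1b was 0.517, 0.444 and 1.6 CPM in Con and 13, 2.12 and 10.5 CPM in UA+DSS (log2 fold change 3.31, SE 1.28). The DSS libraries held 37.9 to 85 CPM of Il11 and 120 to 3011 CPM of Il1b. Il6 was counted in 2 reads over the Con group, and the ratio of UA+DSS to Con was 13.9 (exact 95% interval 3.47 to 121, counting error only).

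Acute phase and antimicrobial genes were higher in UA+DSS as well. Of 19 tested, 12 were higher in every UA+DSS library and none was lower, beside 9.62% and 11% of all tested genes. Without Con replicate 1 the counts were 14 and none, beside 13.1% and 14.5%. Their median log2 fold change was 1.87, against 1.89 without Con replicate 1 and 1.93 at equal position score. DESeq2 called 7 of them raised, beside 1.02% of the genes it adjusted, and none lowered. In DSS against Con, 8 of them were raised, beside 13.9% of all tested genes, and the median log2 fold change was 2.08.

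Reg3b and Reg3g are C-type lectins that the epithelium secretes against bacteria. Reg3b was 0.362, 2.88 and 18 CPM in Con, 6657, 286 and 492 CPM in UA+DSS, with 9.91, 302 and 500 CPM in DSS. Reg3g was 0.207, 6.1 and 9.04 CPM in Con, 1579, 50.6 and 113 CPM in UA+DSS, with 5.44, 55 and 56.7 CPM in DSS. Unlike S100a8 and S100a9, both overlapped between UA+DSS and DSS, and UA+DSS replicate 1 held the highest level of the 9 libraries. The log2 fold changes against Con were 8.45 (SE 1.59, adjusted p in edgeR 0.241) and 6.83 (SE 1.45, adjusted p in edgeR 0.246). Both were lowest in Con replicate 1, and without it the log2 fold changes were 7.89 and 6.26. Summed small intestine and Paneth cell genes were 186, 3108 and 412 CPM in DSS replicates 1 to 3. Summed pancreatic acinar genes were 99.2, 107 and 18658 CPM there. UA+DSS replicate 1 held 1091 and 92.4 CPM of the 2 sums, and 81 CPM of the second sum was the single gene Cela1. A part of such tissue in the Reg3b and Reg3g levels was not tested.

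Saa3, an acute phase apolipoprotein made by epithelium and macrophages, was 0.155, 2.33 and 1.66 CPM in Con, 39.8, 43 and 209 CPM in UA+DSS, with 242, 3281 and 681 CPM in DSS. Its log2 fold change against Con was 6.14 (SE 1.10, unadjusted p 0.000643, adjusted p 0.166, both in edgeR). Lcn2, which binds bacterial siderophores, was 0.983, 0.832 and 1.07 CPM in Con and 3.98, 9.31 and 44.4 CPM in UA+DSS, beside 80.4, 2147 and 143 CPM in DSS (log2 fold change against Con 4.32, SE 1.40). The UA+DSS and Con libraries did not overlap for either gene, and UA+DSS replicate 3 was the highest of its group for both. Chil3, a chitinase-like protein of myeloid cells, was counted in 2 reads over Con and stood at 1.09, 1.56 and 20 CPM in UA+DSS.

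**Figure D3:**
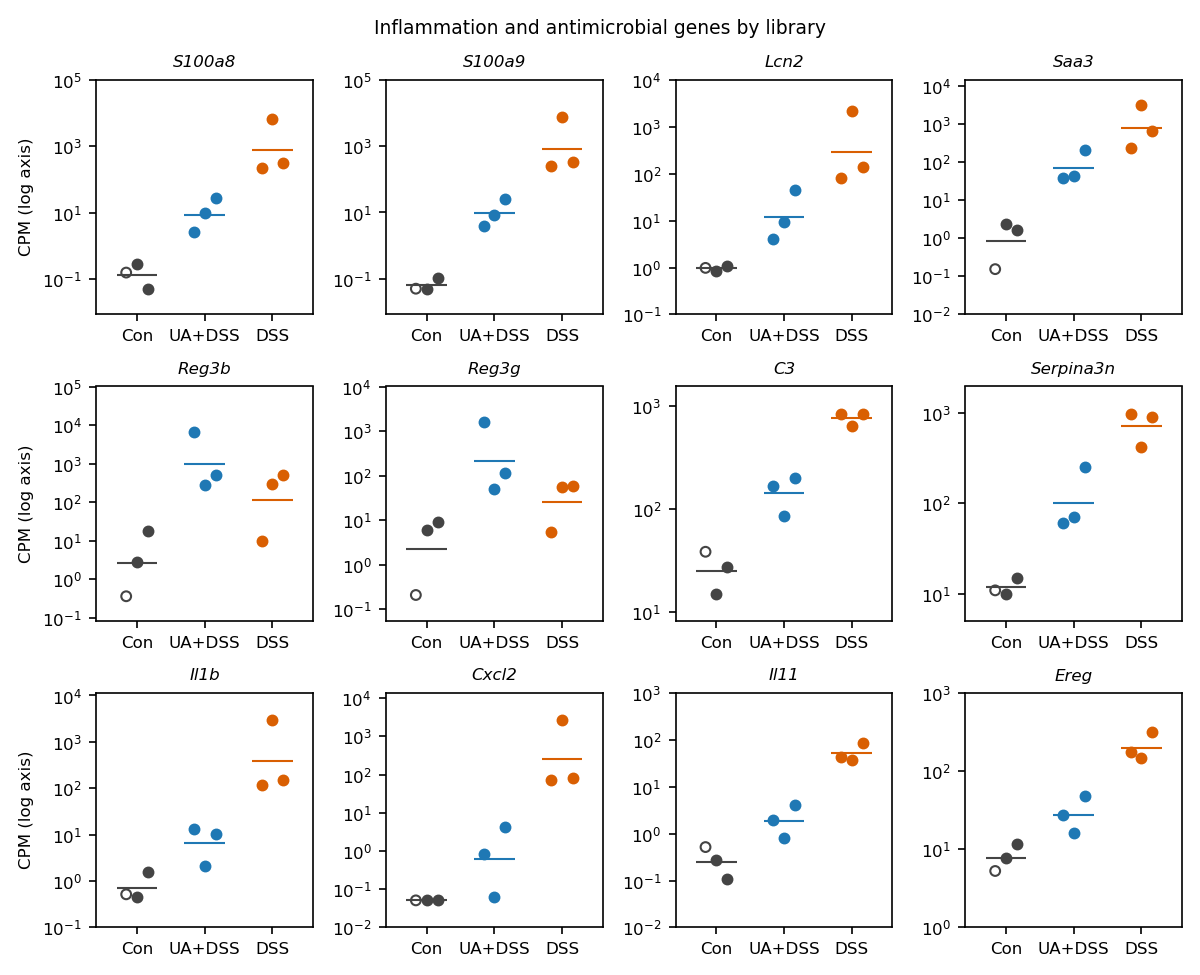
Each point is the CPM of 1 library on a log axis for Con (grey, replicate 1 open), UA+DSS (blue) and DSS (orange), with a line at the geometric mean and values under 0.05 CPM drawn at 0.05. For S100a8, S100a9, Lcn2, Saa3, C3 and Serpina3n the UA+DSS libraries lie between Con and DSS, while Reg3b and Reg3g are highest in UA+DSS replicate 1, at 6657 and 1579 CPM.

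Of 20 tested macrophage markers, 2 were higher without overlap and none was lower, beside 9.62% and 11% of all tested genes. Their median log2 fold change was 0.76, and 16 were raised in DSS, beside 13.9% of all tested genes. Ccr2, the chemokine receptor of inflammatory monocytes, was 6.05 to 7.4 CPM in Con and 7.93 to 20.4 CPM in UA+DSS (log2 fold change 1.11, SE 0.41, adjusted p in edgeR 0.342). Adgre1, which encodes F4/80, overlapped with 4.94 to 17.4 CPM in Con and 8.4 to 33.3 CPM in UA+DSS. Of 27 tested interferon-induced genes, 1 was higher without overlap and none was lower. No gene of MHC class I (13 tested) or class II (9 tested) lay outside the Con range in all UA+DSS libraries. The median of the interferon list was 0.33 with all libraries, 0.05 without Con replicate 1 and −0.24 at equal position score.

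All 22 tested markers of T cells and cytotoxic lymphocytes had a positive log2 fold change, with a median of 1.64 (1.51 without Con replicate 1 and 1.35 at equal position score). Of them, 14 had an unadjusted p below 0.05, beside 4.85% of all tested genes on the higher side, 7 did not overlap, and none passed the adjusted threshold in edgeR. The summed level was 37.1, 48.7 and 71.1 CPM in Con and 341, 188 and 69.1 CPM in UA+DSS, so UA+DSS replicate 3 lay within Con. Ctla4, an inhibitory receptor of regulatory and activated T cells, was 0.569, 1.11 and 1.12 CPM in Con and 6.42, 1.56 and 3.19 CPM in UA+DSS (log2 fold change 1.99, SE 0.57, adjusted p in edgeR 0.272). Cd3e, part of the T cell receptor complex, was 0.828, 0.721 and 1.87 CPM in Con and 5.9, 3.44 and 2.55 CPM in UA+DSS. Il2rb, the beta chain of the receptors for IL-2 and IL-15, was 2.39 to 4.44 CPM in Con and 4.15 to 15.8 CPM in UA+DSS.

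The B cell list turned with 1 library. With all Con libraries, 13 of 14 tested B cell markers had a negative log2 fold change (median −0.88), and none lay outside the Con range. Without Con replicate 1, 8 were higher without overlap, beside 13.1% of all tested genes at that setting, and the median was 1.14, and at equal position score it was 2.49. Ms4a1, which encodes CD20, was 15.8, 0.721 and 1.28 CPM in Con and 4.43, 1.87 and 3.24 CPM in UA+DSS. Ighd, the heavy chain of IgD on naive B cells, was 24.8, 0.721 and 0.963 CPM in Con and 3.53, 1.56 and 3.67 CPM in UA+DSS. The UA+DSS libraries lay above Con replicates 2 and 3 and below Con replicate 1 for both genes. Cxcl13, the chemokine that organizes B cell follicles, was 22.4, 5.82 and 5.29 CPM in Con and 23.5, 20.1 and 59.5 CPM in UA+DSS.

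Of 13 tested plasma cell and IgA genes, 1 was higher without overlap and none was lower. It was Iglc1, a lambda light chain constant region, at 27.9 to 47.7 CPM in Con and 73.9 to 386 CPM in UA+DSS (log2 fold change 2.72, SE 0.60). Of 11 tested mast cell and eosinophil markers, 5 were higher without overlap, beside 9.62% of all tested genes, and none was lower. Mcpt2, a protease of mucosal mast cells, was 0.0517, 0.111 and 0.214 CPM in Con and 8.08, 2.37 and 2.71 CPM in UA+DSS (log2 fold change 5.06, SE 1.42, adjusted p in edgeR 0.241). Cpa3, the mast cell carboxypeptidase, was counted in 1 read over Con and stood at 1.22, 0.5 and 0.425 CPM in UA+DSS, a ratio of 38.9 (exact 95% interval 6.54 to 1581, counting error only). With the spread between libraries, the log2 fold change of Cpa3 was 4.86 (SE 2.02, adjusted p in edgeR 0.245). The DSS libraries held 2.35 to 10.7 CPM of Mcpt2, a range that includes the UA+DSS values.

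**Figure D4:**
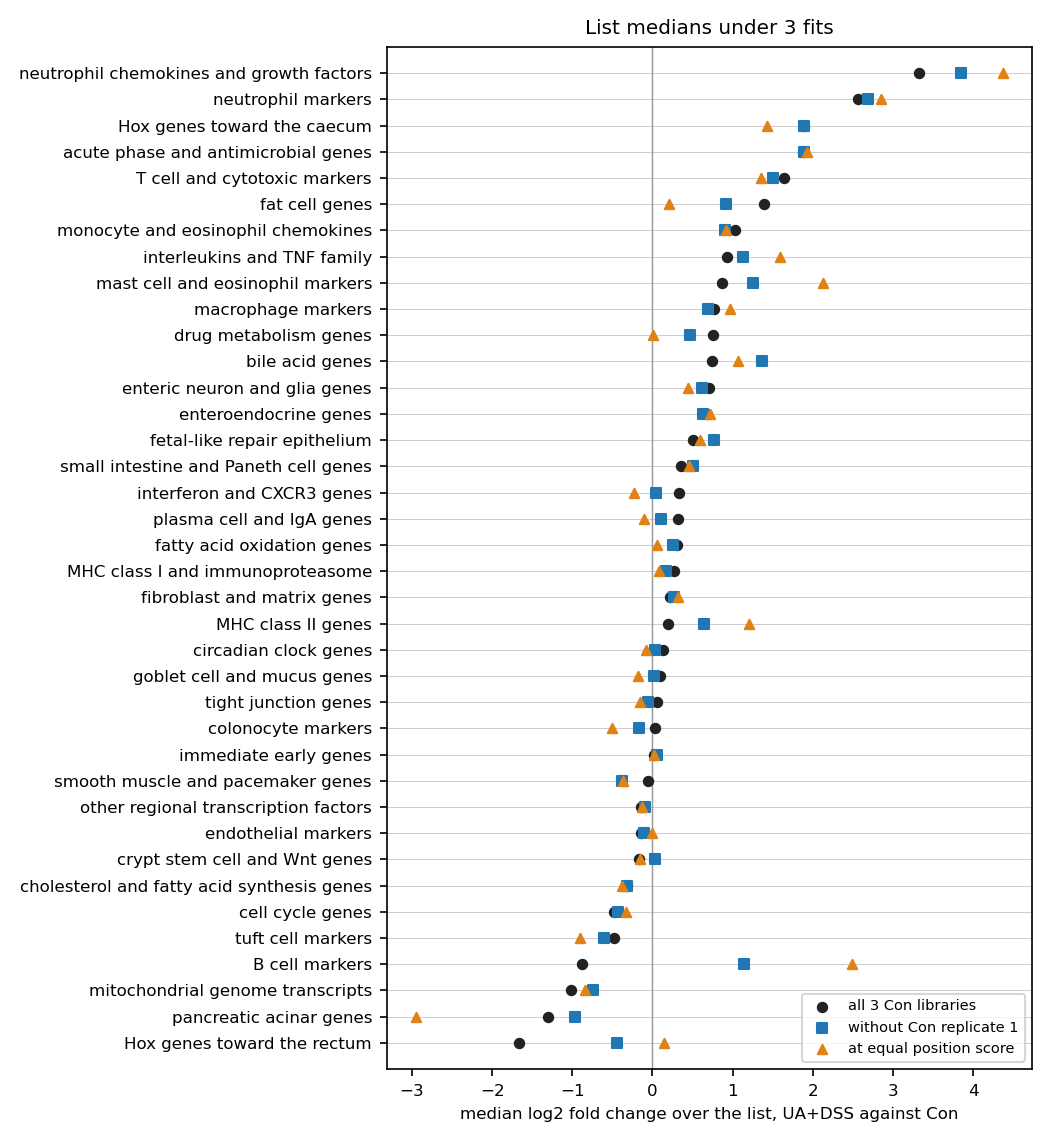
Each row is 1 of the 38 gene lists, and the x axis is the median log2 fold change of its tested members, UA+DSS against Con. Circles use all libraries, squares leave out Con replicate 1 and triangles are at equal position score, and the B cell markers move from −0.88 to 1.14 and 2.49 across them.

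Among genes of the differentiated epithelium, members lay on both sides of Con. Of 18 tested goblet cell and mucus genes, 3 were higher and none was lower without overlap (median log2 fold change 0.09), and 3 were lowered in DSS, where 12.6% of all tested genes were. Without Con replicate 1, 5 were higher and 2 were lower, beside 13.1% and 14.5% of all tested genes. Muc2, the gel-forming mucin of the colon, was 741, 6633 and 5869 CPM in Con and 3155, 4384 and 4134 CPM in UA+DSS. Con replicate 1 was the low library, and without it every UA+DSS library was below Con, with a log2 fold change of −0.68 against −0.18 with all libraries. In DSS it was 631, 147 and 1431 CPM.

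Of 23 tested colonocyte markers, 5 were higher and 3 were lower without overlap (median log2 fold change 0.03, and −0.50 at equal position score). Without Con replicate 1, 6 were higher and 6 were lower, beside 13.1% and 14.5% of all tested genes. Car1, a carbonic anhydrase of colonic surface cells, was 769, 3796 and 1788 CPM in Con and 6524, 9357 and 4602 CPM in UA+DSS (log2 fold change 1.69, SE 0.69, adjusted p in edgeR 0.386), beside 202 to 1644 CPM in DSS. Slc16a1, the butyrate and lactate transporter, was 367 to 610 CPM in Con and 222 to 347 CPM in UA+DSS (log2 fold change −0.73, SE 0.27). Slc26a3, the chloride-bicarbonate exchanger, was 523 to 1062 CPM in Con and 256 to 490 CPM in UA+DSS (log2 fold change −1.06, SE 0.75). Aqp8, a water channel, and Car4 overlapped between the groups. Atp12a, a colonic proton pump, was 109 CPM in Con replicate 1, 4.49 and 9.95 CPM in Con replicates 2 and 3 and 1.37 to 4.68 CPM in UA+DSS. Of 15 tested tight junction genes, 1 was higher and 1 was lower without overlap, and the higher one was Cldn2, the pore-forming claudin, at 131 to 169 CPM in Con and 190 to 307 CPM in UA+DSS.

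Of 20 tested cell cycle genes, 12 had a negative and 8 a positive log2 fold change, and none passed the adjusted threshold in edgeR. In every UA+DSS library 7 were lower than in Con and none was higher, also without Con replicate 1, and 8 had an unadjusted p below 0.05 on the lower side, beside 7.22% of all tested genes. DESeq2 called 1 lowered. Mki67, the Ki-67 antigen, was 466, 281 and 230 CPM in Con and 164, 79.9 and 172 CPM in UA+DSS (log2 fold change −1.23, SE 0.40, adjusted p in edgeR 0.312, and −0.88 without Con replicate 1). Ccnb2, a mitotic cyclin, was 62.6, 53.6 and 45.3 CPM in Con and 29.1, 17.9 and 34.4 CPM in UA+DSS (log2 fold change −0.99, SE 0.23, adjusted p in edgeR 0.216). Cdk1 was 46.3 to 59.9 CPM in Con and 17.2 to 37.5 CPM in UA+DSS. The DSS libraries held 49.2 to 63.4 CPM of Ccnb2 and 59.2 to 73.7 CPM of Cdk1, above the UA+DSS libraries. Of 15 tested stem cell and Wnt genes, 1 was higher and 1 was lower without overlap. Lgr5, the crypt stem cell receptor, was 7.7 to 16.4 CPM in Con, 6.81 to 9.84 CPM in UA+DSS, with 0.501 to 4.6 CPM in DSS. Ereg, an EGF receptor ligand from the list of fetal-like repair genes, was 5.28 to 11.6 CPM in Con, 16.2 to 48.8 CPM in UA+DSS, with 148 to 315 CPM in DSS (log2 fold change against Con 1.90, SE 0.46). It was among 2 of 16 tested genes of that list that were higher without overlap.

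Hormone genes differed by product. Of 17 tested enteroendocrine genes, 5 were higher and 2 were lower without overlap. Without Con replicate 1, 9 were higher and 3 were lower, beside 13.1% and 14.5% of all tested genes. Chgb, a granin of endocrine secretory granules, was 114, 96.2 and 123 CPM in Con and 236, 329 and 218 CPM in UA+DSS (log2 fold change 1.23, SE 0.22, adjusted p in edgeR 0.166, and 1.21 at equal position score). Chga, its relative, was 66.7 to 81.7 CPM in Con and 98 to 185 CPM in UA+DSS. Insl5, a hormone of distal colonic L cells, was 156, 96.8 and 81.7 CPM in Con and 9.49, 1.5 and 20.7 CPM in UA+DSS (log2 fold change −3.39, SE 0.76, adjusted p in edgeR 0.23). Pyy, the peptide YY of L cells, was 71 to 222 CPM in Con and 42.2 to 59.3 CPM in UA+DSS, and its log2 fold change of −1.42 was −0.84 without Con replicate 1 and −0.25 at equal position score. Nts, neurotensin, was 0.0517, 11.8 and 2.14 CPM in Con and 73.8, 47.9 and 15.7 CPM in UA+DSS, with a log2 fold change of 3.30 (SE 1.11) that was 0.55 at equal position score.

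All 9 tested bile acid genes had a positive log2 fold change. Of them, 4 were higher without overlap, beside 9.62% of all tested genes, and 6 without Con replicate 1, beside 13.1%. Besides Slc10a2, Nr1h4, the bile acid receptor FXR, was 45.5, 79.9 and 50.6 CPM in Con and 159, 220 and 126 CPM in UA+DSS (log2 fold change 1.52, SE 0.33, adjusted p in edgeR 0.172, and 1.06 at equal position score). Fabp6, the ileal bile acid binding protein, overlapped with 0.695 to 8.84 and 1.75 to 10.3 CPM. Of 33 tested drug metabolism genes, 12 were higher and 1 was lower without overlap, beside 9.62% and 11% of all tested genes. Their median of 0.75 was 0.47 without Con replicate 1 and 0.01 at equal position score. Gsta1, a glutathione transferase, was 5.61 to 9.93 CPM in Con and 20.6 to 29.5 CPM in UA+DSS (log2 fold change 1.72, SE 0.31, adjusted p in edgeR 0.166), beside 16.2 to 35.1 CPM in DSS. Gsta4, its relative, was 24.2 to 31.9 CPM in Con and 37.8 to 52.6 CPM in UA+DSS. Ugt2b5, a glucuronosyltransferase, was 0, 22 and 10.4 CPM in Con and 44.9, 65.2 and 26.1 CPM in UA+DSS, with a log2 fold change of 2.07 that was −0.98 at equal position score. Of 28 tested fatty acid oxidation genes, 6 were higher and none was lower without overlap, beside the same 9.62% and 11%. Their median log2 fold change was 0.30, and 12 were lowered in DSS, beside 12.6% of all tested genes. Acsl1, which activates long-chain fatty acids, was 22.6 to 30.5 CPM in Con and 30.6 to 42.5 CPM in UA+DSS. Acaa1b, a peroxisomal thiolase, was 0.0517, 2.16 and 1.18 CPM in Con and 11, 14.2 and 6.97 CPM in UA+DSS. Cpt1a, the entry step for mitochondrial oxidation, overlapped between the groups.

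**Figure D5:**
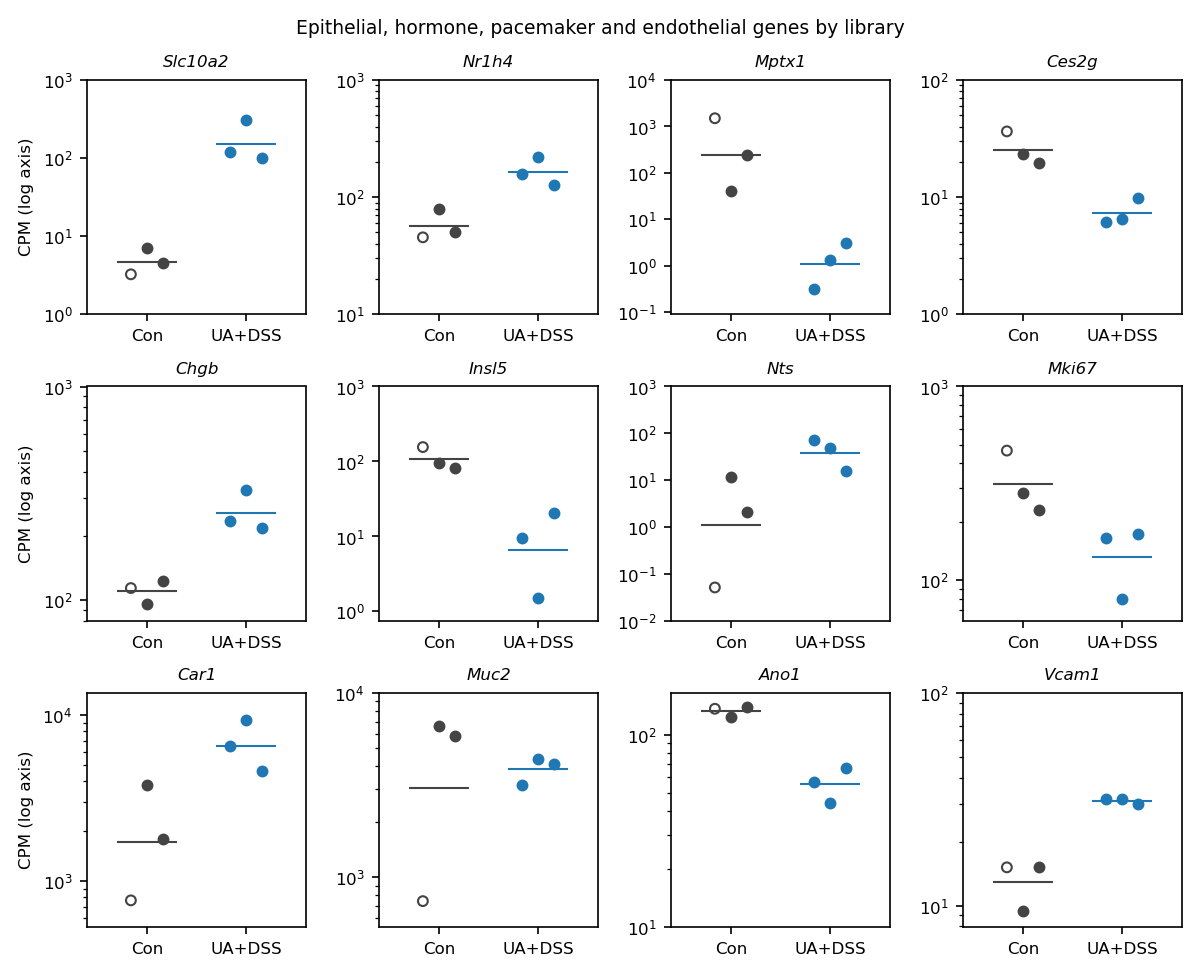
Each point is the CPM of 1 library on a log axis for Con (grey, replicate 1 open) and UA+DSS (blue), with a line at the geometric mean. Slc10a2, Nr1h4, Chgb, Nts, Car1 and Vcam1 are higher in all 3 UA+DSS libraries, Mptx1, Ces2g, Insl5, Mki67 and Ano1 are lower, and Muc2 splits the Con libraries at 741 against 6633 and 5869 CPM.

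In the supporting tissue, of 26 tested fibroblast and matrix genes, 2 were higher and 1 was lower without overlap (median 0.21). Those counts stand beside 9.62% and 11% of all tested genes. In DSS 23 of the 26 were raised, beside 13.9% of all tested genes. Col1a1, a chain of type I collagen, was 69.8 to 153 CPM in Con and 51.5 to 276 CPM in UA+DSS. Mmp3, stromelysin 1, was 2.17, 0.777 and 1.23 CPM in Con and 7.96, 0.687 and 31.2 CPM in UA+DSS, with UA+DSS replicate 2 below all Con libraries. Of 18 tested endothelial markers, 5 were higher and 5 were lower without overlap, beside 9.62% and 11% of all tested genes. DESeq2 called 2 of them raised and 1 lowered, and edgeR called none. Vcam1, an adhesion molecule of activated endothelium, was 15.2, 9.48 and 15.2 CPM in Con and 31.7, 31.8 and 29.9 CPM in UA+DSS (log2 fold change 1.23, SE 0.30, adjusted p in edgeR 0.23), beside 79.6 to 209 CPM in DSS. Tek, the angiopoietin receptor, was 15.8, 20.3 and 16 CPM in Con and 11, 11.6 and 9.62 CPM in UA+DSS (log2 fold change −0.70, SE 0.17, adjusted p in edgeR 0.216). Pecam1, a general endothelial marker, overlapped at 46.9 to 64.6 and 47.4 to 49.6 CPM. Of 15 tested smooth muscle and pacemaker genes, none was higher and 2 were lower without overlap, which were Ano1 and Casq2, a calcium store protein at 8.71 to 14 CPM in Con and 3.69 to 7.25 CPM in UA+DSS.

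Markers of tissues that a dissected colon piece can carry were compared too. Of 13 tested small intestine and Paneth cell genes, 2 were higher and none was lower. Sis, the brush border sucrase-isomaltase, was 0, 0.277 and 0.321 CPM in Con and 2.89, 32.4 and 4.31 CPM in UA+DSS (log2 fold change 6.02, SE 3.32). The summed level of that list was 426 to 1926 CPM in Con and 1091 to 1763 CPM in UA+DSS, and it reached 3108 CPM in DSS replicate 2. Summed pancreatic acinar genes were 162 to 574 CPM in Con and 75.7 to 96.9 CPM in UA+DSS. They reached 18658 CPM in DSS replicate 3. Most of the sum in Con and UA+DSS was 1 gene, Cela1. It was 553, 157 and 141 CPM in Con and 81, 60.2 and 87.3 CPM in UA+DSS. Reg1 of the same list was higher in every UA+DSS library than in Con. Summed fat cell genes were 288 to 439 CPM in Con and 402 to 680 CPM in UA+DSS. The part of these tissues in the results above was not tested. Of the 13 transcripts of the mitochondrial genome, 1 was lower without overlap, 6 had an unadjusted p below 0.05 on the lower side, and the median log2 fold change was −1.02.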

How the data were processed

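RNA was sequenced from 3 colon pieces per group. The labels name Trizol and a TruSeq kit, and the methods name an RNeasy kit and a HiSeq sequencer. The authors deposited raw counts per Ensembl gene for each library, made after FastQC and HISAT2 mapping to GRCm38. Cuffdiff is also listed in the submitters' processing notes. For tool versions, annotation release, strand setting and multi-mapping reads, nothing is given in the sources used here. Of 54532 listed genes, 54495 took a symbol from GENCODE M21 (GRCm38), and the 37 others held 0.00364% of the counts.

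Genes were kept by edgeR's filterByExpr (17658 genes, 99.8% of the counts) and scaled by TMM (factors 0.871 to 1.09). The quasi-likelihood test of edgeR 4.0.16 was fitted over all 12 libraries (R 4.3.3), p-values being adjusted over the 17658 genes by Benjamini-Hochberg and called below 0.05. CPM use TMM-scaled library sizes, and log2 CPM carry a prior count of 2. Alternatives used DESeq2 1.42.0, limma-voom (limma 3.58.1), other scalings and filters, a replicate block, other position scores and the omission of each library. The fits were also run on simulated counts with planted changes. All other genes kept the same mean over the libraries there, so that run does not cover a library that stands apart. Intervals and floors (3 counts) cover counting error only. The methods name 3 colonic tissues of each group, and the labels do not say that libraries came from separate animals. The p-values therefore measure the spread between these libraries, and whether that is a spread between animals is not stated. The closest pair within a group differed by a chi-square of 40.2 per degree of freedom, so no library was counted as a repeat. Same-numbered Con and UA+DSS libraries deviated from their group means with correlations of −0.08, 0.05 and −0.07, so the numbers were not taken as pairs.

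Genes named in the text were those called, the 8 higher and the 8 lower non-overlapping genes with the smallest p (mean log2 CPM of at least 1), the 5 leading genes in each direction at equal position score, by slope and in Con replicate 1, the 2 with the smallest p in each of 38 lists and marker genes fixed per list, from which examples were taken. The members, lists (692 genes, of which 3 symbols were not matched), position score and rules were chosen with earlier results of these data known.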

Additional observations from a re-analysis of the deposited data

How the results depend on the processing

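Depth of 15566216 to 19498383 counts left genes such as S100a9, Cxcl2 and Il6 at 0 to 2 reads over the Con group, and 3 libraries a group with 1 Con library apart left wide errors. The number of genes called for UA+DSS against Con in edgeR was 1, and it was 0 by limma-voom (2112 at an unadjusted p below 0.05), 0 without the filter on low counts (2465 unadjusted), 0 with at least 10 counts in every library (1621 unadjusted), 376 by DESeq2, and 129 by DESeq2 without Con replicate 1, an alternative added after the data were seen. Leaving out 1 library gave 0 to 4 calls, and 0 without any 1 of Con replicates 1 to 3. Called genes at equal position score were 0, and 2 with the score from Hoxd10 to Hoxd13, with 0 to 2 on leaving out 1 library. The slope calls numbered 224, and 11 with the replicate block, 361 with the score from Hoxd10 to Hoxd13, 1 with Hoxb13 minus Hoxb6, and 1 to 771 on leaving out 1 library, the 771 without DSS replicate 2. Genes without overlap numbered 3639, and 4882 to 6445 with 1 library left out, since fewer libraries overlap less. DSS against Con gave 4688 calls, 2131 in a fit of those groups alone and 2894 to 4708 with 1 library left out. The position score difference of −5.13 ran from −6.76 to −2.48 on leaving out 1 library. With the replicate block, 1 gene was called for UA+DSS against Con, and the block changed no other call of that comparison. The cause of these differences was not tested, save where fewer libraries or genes were used.

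Of the 111 genes followed across alternatives, 41 passed the threshold in DESeq2 and not in edgeR. The sign of the log2 fold change of genes that were not called turned in a few fits. By limma-voom it was 0.25 for Ms4a1, 0.043 for Ighd, 0.32 for Muc2, 0.30 for Reg4, 1.52 for Hoxd10 and 2.11 for Hoxd11, and with the replicate block 0.32 for Reg4. On leaving out 1 library it ran from −1.73 to 1.45 for Ly6g, from −1.42 to 1.66 for Ms4a1, from −2.14 to 1.79 for Ighd, from −1.14 to 0.17 for Slc36a1, from −1.94 to 2.18 for Reg4, from −2.37 to 0.042 for Armc9, from −2.31 to 4.79 for Hoxd10 and from −2.51 to 5.76 for Hoxd11, each highest without Con replicate 1. For Muc2 it ran from −0.68 without Con replicate 1 to 0.24 without Con replicate 2.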

Other observations

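Of 18 tested immediate early genes, which respond to growth signals and to handling of tissue, 2 were higher and 1 was lower without overlap, with a median log2 fold change of 0.02. Without Con replicate 1, 3 were higher and 4 were lower, beside 13.1% and 14.5% of all tested genes. Egr2, a zinc-finger factor of activated lymphoid and myeloid cells, was 0.155, 0.277 and 0.481 CPM in Con, 1.22, 1.5 and 1.12 CPM in UA+DSS and 3.9 to 5.56 CPM in DSS (log2 fold change against Con 2.05, SE 0.41, adjusted p in edgeR 0.166). Of 17 tested circadian clock genes, which shift with the hour of sampling, 1 was higher and 1 was lower. Nfil3, a clock-linked repressor also used by lymphocytes, was 1.71 to 6.49 CPM in Con, 11.4 to 16 CPM in UA+DSS and 29.4 to 80.8 CPM in DSS (log2 fold change against Con 1.75, SE 0.47).

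Of 26 tested genes of cholesterol and fatty acid synthesis, 2 were higher and 1 was lower, with a median of −0.31 and 19 negative log2 fold changes. Of 10 tested tuft cell markers, none was higher and 1 was lower, and without Con replicate 1 none and 7 (14.5% of all tested genes were lower without overlap at that setting). Lrmp, a membrane protein that marks tuft cells, was 54.1, 13.6 and 17.3 CPM in Con and 12.9, 8.68 and 10.6 CPM in UA+DSS. Of 18 tested enteric neuron and glia genes, 3 were higher and 1 was lower, with a median of 0.70 and 14 positive log2 fold changes. Ret, the receptor that enteric neurons need to develop, was 4.5, 4.33 and 12.5 CPM in Con and 12.8, 12.4 and 21.8 CPM in UA+DSS, where UA+DSS replicates 1 and 2 lay beside Con replicate 3 (log2 fold change 1.14, SE 0.42, adjusted p in edgeR 0.346).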
